A study of Mus musculus with 10 samples.

Results

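Many subunits of the vacuolar H+-ATPase (V-ATPase) exist as a widely expressed isoform and a second isoform that is enriched in acid-secreting cells. The 10 genes described here form 5 such pairs, chosen by name as the intercalated-cell isoforms and their ubiquitous counterparts. The pairs were B (Atp6v1b1 and Atp6v1b2), C (Atp6v1c2 and Atp6v1c1), G (Atp6v1g3 and Atp6v1g1), a (Atp6v0a4 and Atp6v0a1) and d (Atp6v0d2 and Atp6v0d1). All 10 were found among the 13837 genes of the kidney table, and all 10 passed the filter on low values that left 13197 genes for testing.

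The study asked what mildly raised nutrient signaling to mTORC1 does in mice, and the comparison here is its young whole kidney, 5 mice labelled RagC S74N (KI/+) against 5 labelled RagC S74N (+/+). All 10 mice were 3 months old, and sex was not given by the labels. KI/+ mice carried, in the whole body, 1 edited Rragc allele whose product, a Rag GTPase subunit that brings mTORC1 to the lysosome, behaves as if bound to GDP, while +/+ mice carried none. Each mouse gave 1 library of reads from the 3′ ends of polyadenylated RNA. The edit lies in exon 1 of Rragc and the table holds counts per gene, so it cannot show the genotype. Coverage of exon 1 was not examined. Rragc itself ranged from 243.8 to 346.9 normalized counts in +/+ kidneys and from 188.8 to 248.1 in KI/+ kidneys, with a log2 fold change of -0.40 (SE 0.12) and an adjusted p of 0.0678 in the limma model, and DESeq2 on the recovered reads called it lower (adjusted p = 0.0336), the only 1 of 12 other settings and of 10 fits without 1 mouse that did so (edgeR 0.0574, range of all 0.0336 to 0.209).

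The V-ATPase is a rotary proton pump. Its peripheral V1 sector hydrolyses ATP at the interfaces of the A and B subunits, and its membrane V0 sector carries protons through subunit a and the ring of c subunits. Subunits C, E and G form the stalks that hold the stator, and subunit d caps the c ring and couples it to the central stalk made of D and F. Nearly every cell uses the pump to acidify lysosomes and endosomes, and on the lysosome it also takes part in amino acid sensing by the Rag GTPases. In the collecting duct and connecting tubule, intercalated cells place pumps built with B1, a4 and other cell-type isoforms in the plasma membrane, where type A cells secrete acid and type B cells secrete bicarbonate. Loss of human B1 or a4 causes distal renal tubular acidosis.

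Both classes of gene have regulators with well-known DNA motifs, FOXI1 (a forkhead factor of intercalated cells) and TFEB and its relatives (E-box factors of lysosomal genes that mTORC1 holds in check). RefSeq promoter windows of the GRCm38.p6 build, running from 250 bases before to 50 bases after the annotated start, matched 6 of the 10 isoform genes. No window was matched for Atp6v0d2, Atp6v1b2, Atp6v1c1 or Atp6v1g1. The windows were searched for the E-box CACGTG, which reads the same on both strands, and for the forkhead core TGTTTA on either strand. The E-box was in 1 of the 6 isoform genes with a window and in 7.15% of the 32851 mouse promoter windows, and the forkhead core was in 1 of 6 and in 13.4%. The stretches around both matches are shown because they are the only matches among the isoform genes, with Atp6v1a, whose product is the catalytic A subunit common to all V-ATPases, as 1 of the 3 genes with an E-box (with Atp6v0b and Atp6v0e) among 13 other subunit genes with a window. The forkhead core was in 0 of those 13, and the windows of Atp6v1d and Atp6v1e1 held neither motif. Each is 30 bases, 5′ to 3′ on the strand of the gene, with the motif in capitals.
Atp6v1b1, forkhead core, chr6:83742907-83742936, plus strand: taccagcttcccTGTTTAcagtcaacctgg
Atp6v0d1, E-box, chr8:105566050-105566079, minus strand: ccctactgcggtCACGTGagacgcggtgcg
Atp6v1a, E-box, chr16:44139373-44139402, minus strand: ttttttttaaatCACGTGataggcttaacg
The Atp6v1b1 match began at position -98 from the start, the Atp6v0d1 match at -3 and the Atp6v1a match at -131. The windows of Atp6v1c2, Atp6v1g3, Atp6v0a4 and Atp6v0a1 held neither motif. Such a match of letters is a description of the window, and binding was not measured in these kidneys.

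Of the 10 isoform genes, 1 passed the threshold between genotypes. That gene was Atp6v0d2, the intercalated-cell isoform of subunit d, which fell. No isoform gene rose in the main limma fit, at the adjusted threshold or at an unadjusted p under 0.05. The count models edgeR and DESeq2 on the recovered reads also called Atp6v0d2 alone. In the limma model 3.69% of all genes tested were called in either direction, 2.02% as lower and 1.67% as higher in KI/+ kidneys. The remaining 9 isoform genes had log2 fold changes between -0.23 and 0.16. By class, the median log2 fold change was -0.19 for the intercalated-cell isoforms and -0.13 for the ubiquitous isoforms, beside 0.00046 for all genes tested, and in each class 4 of 5 values were negative. Values here are normalized counts, which are reads per gene divided by the size factor of the library, and log2 fold changes are KI/+ over +/+ on the log2(value + 1) scale.

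**Figure D1:**
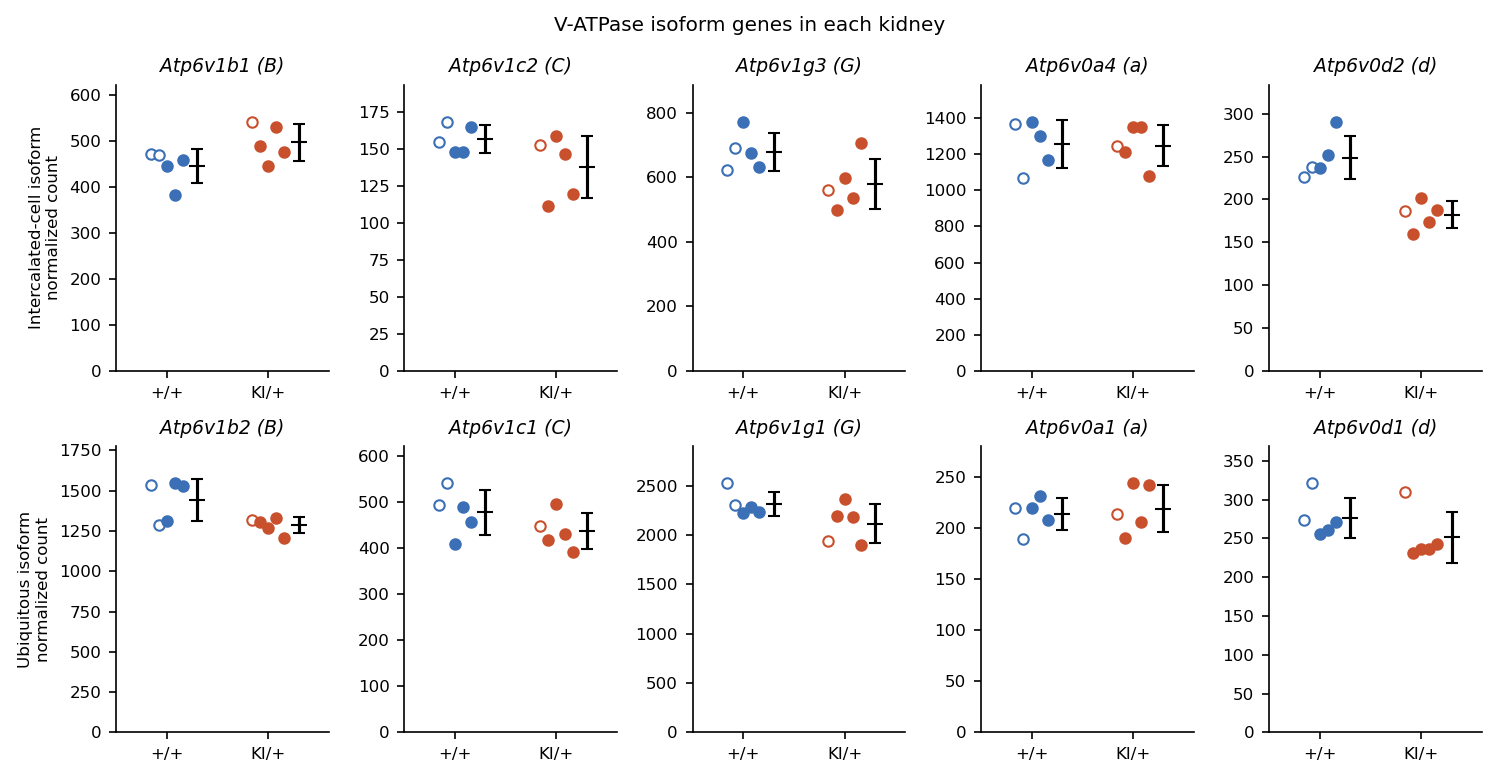
Normalized counts of the 10 isoform genes, one panel per gene with its own axis from 0, intercalated-cell isoforms above and ubiquitous isoforms below. Each circle is 1 kidney (5 +/+ in blue, 5 KI/+ in orange, open circles for the 3 libraries of the lower run of library codes), and black bars are mean ± SD. The genotypes separate without overlap only for Atp6v0d2, at 226.4 to 290.4 in +/+ and 159.8 to 201.8 in KI/+ kidneys.

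Subunit d joins the rotor to the proton ring, and d2 is the isoform of intercalated cells, osteoclasts and some other specialised cells. Atp6v0d2 stood at 226.4, 237.5, 237.0, 251.9 and 290.4 normalized counts in +/+ replicates 1 to 5. In KI/+ replicates 1 to 5 it stood at 186.9, 159.8, 201.8, 174.0 and 187.8. Every KI/+ kidney was below every +/+ kidney, as was the case for 2.71% of all genes tested. The means were 248.6 ± 25.1 and 182.0 ± 15.9 normalized counts (SD, n = 5 each), and the mean fell by 26.8%. The log2 fold change was -0.45 (SE 0.10, 95% interval -0.66 to -0.23) with an adjusted p of 0.0194 by limma with Benjamini-Hochberg adjustment. The two-sided exact permutation test of this gene alone gave p = 0.00794, the smallest that 252 splits of 10 mice can give. Between 172 and 272 reads per library lay behind these values, so counting alone gives a coefficient of variation near 6.80%, beside an observed 10.1% in +/+ and 8.71% in KI/+ kidneys. Without +/+ replicate 4 or 5, or KI/+ replicate 2 or 4, the adjusted p was 0.0594, 0.0810, 0.0525 and 0.0524, respectively.

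The libraries fall in 2 runs of codes, 38 to 40 (+/+ replicates 1 and 2, KI/+ replicate 1) and 53 to 66 (the other 7). Nothing in the labels says what the runs are. In the upper run alone Atp6v0d2 averaged 259.8 in 3 +/+ and 180.8 in 4 KI/+ kidneys (log2 fold change -0.52, adjusted p = 0.0487 by limma). In the lower run it averaged 231.9 in 2 +/+ kidneys and was 186.9 in 1 KI/+ kidney. The direction was therefore the same in both runs, and a model with the run as a covariate gave -0.46 with an adjusted p of 0.0114. In bulk tissue, fewer cells of a type and less RNA per cell cannot be told apart.

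Atp6v0d1 makes the d subunit of the pumps found in all cells. It stood at 273.9, 321.0, 255.2, 261.6 and 271.2 normalized counts in +/+ replicates 1 to 5 and at 310.2, 231.4, 236.5, 236.2 and 242.3 in KI/+ replicates 1 to 5. KI/+ replicate 1 lay within the +/+ range and the other 4 KI/+ kidneys lay below it. All 3 kidneys of the lower run of codes were above every kidney of the upper run, at 273.9 to 321.0 against 231.4 to 271.2. The log2 fold change was -0.14 (SE 0.11), with an adjusted p of 0.594 in the limma model. The fold change was -0.22 without KI/+ replicate 1 (adjusted p = 0.350) and -0.09 without +/+ replicate 2 (0.768). With the code run as a covariate it was -0.09 (adjusted p = 0.629 by limma).

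The ratio of the intercalated-cell to the ubiquitous isoform within a mouse, taken as log2 of (value + 1) over (value + 1), was compared by pair. The size factor of the library enters it only through the pseudocount. Since 1 read arises per transcript end in this assay, counts do not grow with transcript length, but priming and mapping can differ between 2 genes, so the ratio compares genotypes and is not a ratio of molecules. Of the 5 pairs compared, 2 had an exact permutation p under 0.05, without adjustment over the pairs. They moved in opposite directions, B towards the intercalated-cell isoform and d away from it. The ranges of the genotypes overlapped in all 5 pairs.

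The d pair had log2 ratios of -0.27, -0.43, -0.11, -0.05 and 0.10 in +/+ replicates 1 to 5 and of -0.73, -0.53, -0.23, -0.44 and -0.37 in KI/+ replicates 1 to 5. The mean ratio was lower in KI/+ by 0.30 on the log2 scale (difference -0.30, SE 0.12, two-sided exact permutation p = 0.0476, n = 5 each). As a share of the counts of the pair, Atp6v0d2 made up 47.3% ± 3.55 in +/+ and 42.1% ± 3.16 in KI/+ kidneys (SD). The 2 +/+ kidneys of the lower run had the lowest +/+ ratios, and the KI/+ kidney of that run had the lowest KI/+ ratio. In the upper run alone the difference was -0.37 with an exact permutation p of 0.0571, and with mice permuted only within their run it was -0.30 with p = 0.0381. Leaving out 1 mouse gave differences from -0.375 to -0.237, and the exact permutation p was under 0.05 in 3 of 10 such tests, those without +/+ replicate 1, +/+ replicate 2 or KI/+ replicate 3.

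The B subunit completes the nucleotide sites of V1 and binds actin. The 2 genes differ in distribution, with B1 in intercalated cells, inner ear and epididymis and B2 in other cells and also at a lower level in intercalated cells. Atp6v1b1 stood at 471.9, 469.6, 446.8, 382.7 and 460.2 normalized counts in +/+ replicates 1 to 5 and at 542.6, 490.6, 445.6, 531.8 and 477.8 in KI/+ replicates 1 to 5. All KI/+ kidneys but replicate 3 were above all +/+ kidneys. The log2 fold change was 0.16 (SE 0.09, 95% interval -0.03 to 0.35), with an adjusted p of 0.447 in the limma model, and it was 0.10 without +/+ replicate 4 (adjusted p = 0.750). With the code run as a covariate it was 0.19 (limma unadjusted p = 0.0374, adjusted p = 0.214). Without KI/+ replicate 3 it was 0.20 (limma unadjusted p = 0.0493, adjusted p = 0.317). Atp6v1b2 stood at 1534, 1288, 1310, 1546 and 1530 normalized counts in +/+ replicates 1 to 5 and at 1320, 1304, 1271, 1330 and 1209 in KI/+ replicates 1 to 5. In +/+ kidneys 3 values were 1530 or higher and 2 were near the KI/+ values, and every KI/+ kidney was below those 3. Its log2 fold change was -0.16 (SE 0.08, 95% interval -0.33 to 0.01) in the limma model. Neither gene of the pair passed the threshold on its own.

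Their ratio was judged by a test of its own, without adjustment over the 5 pairs, a lower bar than that for single genes. The log2 ratio of Atp6v1b1 to Atp6v1b2 was -1.70, -1.45, -1.55, -2.01 and -1.73 in +/+ replicates 1 to 5 and -1.28, -1.41, -1.51, -1.32 and -1.34 in KI/+ replicates 1 to 5. All KI/+ kidneys but replicate 3 lay above the highest +/+ kidney, replicate 2. The difference was 0.32 (SE 0.10, two-sided exact permutation p = 0.0159, n = 5 each), equal to a ratio 1.25 times as high. Atp6v1b1 made up 23.7% ± 2.62 of the counts of the pair in +/+ and 27.9% ± 1.24 in KI/+ kidneys. The difference was 0.37 in the upper run alone, with p = 0.0286, the smallest the exact permutation test can give for 3 against 4 mice, and its p with mice permuted within runs was 0.0190. Leaving out 1 mouse gave differences from 0.236, without +/+ replicate 4, to 0.376, with exact permutation p from 0.00794 to 0.0397.

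**Figure D2:**
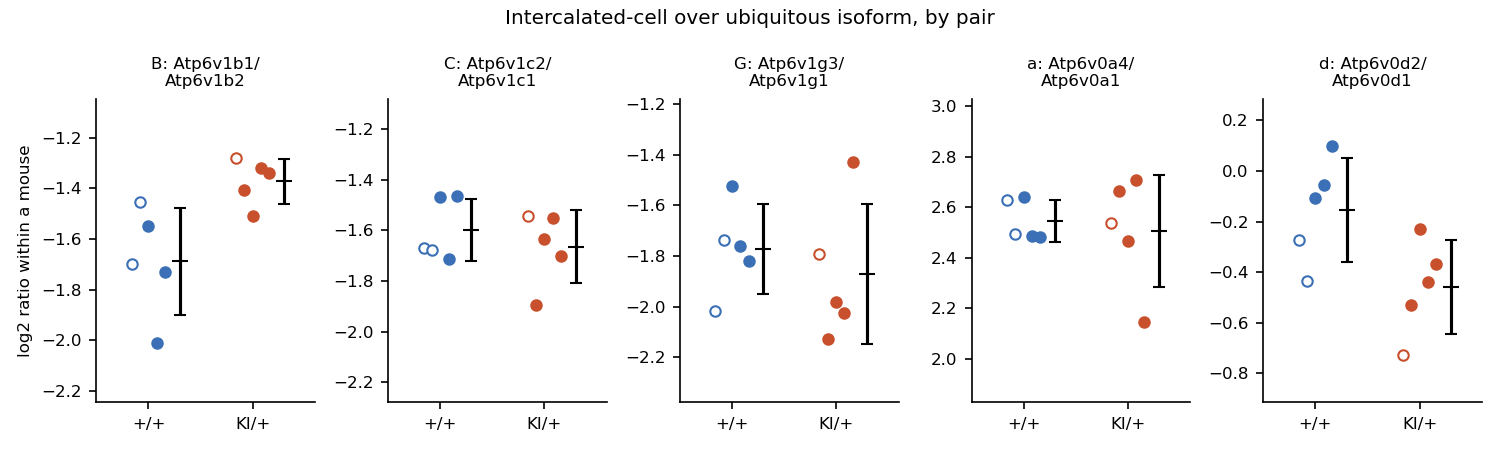
Log2 ratio of the intercalated-cell to the ubiquitous isoform in each kidney for the 5 pairs, with 5 +/+ (blue) and 5 KI/+ (orange) kidneys, open circles for the lower run of library codes and bars for mean ± SD. The panels span equal lengths of the log2 axis, and the KI/+ mean lies 0.32 above the +/+ mean for B and 0.30 below it for d, with overlap in every panel.

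For the remaining 3 pairs the difference in ratio was no larger than its standard error. Subunit C reversibly links the V1 and V0 stalks, and Atp6v1c2 is its isoform of kidney and lung. Atp6v1c2 ranged from 147.4 to 168.1 normalized counts in +/+ and from 111.5 to 158.7 in KI/+ kidneys, where replicates 2 and 5 were below the rest, with a log2 fold change of -0.19 (SE 0.12) and an adjusted p of 0.494 by limma. Atp6v1c1, the widespread form, ranged from 409.4 to 539.8 and from 391.2 to 495.0, with -0.13 (SE 0.09) and an adjusted p of 0.592. Without KI/+ replicate 2 the Atp6v1c2 fold change was -0.12, and that of Atp6v1c1 was -0.08 without +/+ replicate 2 and -0.06 in the upper run alone. The C ratio differed by -0.07 (SE 0.08, exact permutation p = 0.444), or by -0.01 without KI/+ replicate 2, -0.03 without +/+ replicate 3 or 5 and -0.15 in the upper run alone (p = 0.229), and the share of Atp6v1c2 was 24.8% ± 1.59 in +/+ and 23.9% ± 1.80 in KI/+ kidneys.

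Subunit G is a small part of the peripheral stalks, with G3 nearly restricted to intercalated cells in the kidney. Atp6v1g3 stood at 622.6, 691.9, 772.3, 674.3 and 633.1 normalized counts in +/+ replicates 1 to 5 and at 559.6, 499.9, 598.0, 535.7 and 705.5 in KI/+ replicates 1 to 5. All KI/+ kidneys but replicate 5, the KI/+ maximum, were below all +/+ kidneys. The log2 fold change was -0.23 (SE 0.10), with an unadjusted p of 0.0299 in the limma model, a level reached by 15.4% of all genes tested, and an adjusted p of 0.251. Atp6v1g1, the widespread form, ranged from 2219 to 2523 in +/+ and from 1901 to 2367 in KI/+ kidneys, with -0.13 (SE 0.08) and an adjusted p of 0.479, or -0.06 in the upper run alone. The G ratio differed by -0.10 (SE 0.15, exact permutation p = 0.516), or by -0.21 without KI/+ replicate 5 (p = 0.0873), -0.04 without KI/+ replicate 2 or +/+ replicate 3, -0.06 without KI/+ replicate 4, -0.16 without +/+ replicate 1 and -0.19 in the upper run alone (p = 0.400), and the share of Atp6v1g3 was 22.7% ± 2.16 and 21.6% ± 3.36.

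Subunit a holds the channels through which protons enter and leave the ring and directs the pump to a membrane, a4 to the surface of intercalated and some proximal tubule cells and a1 to synaptic vesicles and other organelles. Atp6v0a4 ranged from 1071 to 1379 normalized counts in +/+ and from 1077 to 1351 in KI/+ kidneys, ranges that nearly coincided. Its log2 fold change was -0.01 with a 95% interval of -0.20 to 0.18, and its adjusted p by limma was 0.981. The fold change was -0.07 under quantile normalization (adjusted p = 0.788 by limma) and -0.065 to 0.043 without 1 mouse. Atp6v0a1 ranged from 189.4 to 231.5 and from 190.5 to 243.8, with 0.03 (SE 0.10) and an adjusted p of 0.928. The a ratio differed by -0.04 (SE 0.11, exact permutation p = 0.810), or by 0.05 without KI/+ replicate 5, which had the lowest ratio of all 10 mice. Atp6v0a4 made up 85.4% ± 0.697 of the counts of the pair in +/+ and 85.0% ± 2.05 in KI/+ kidneys.

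**Figure D3:**
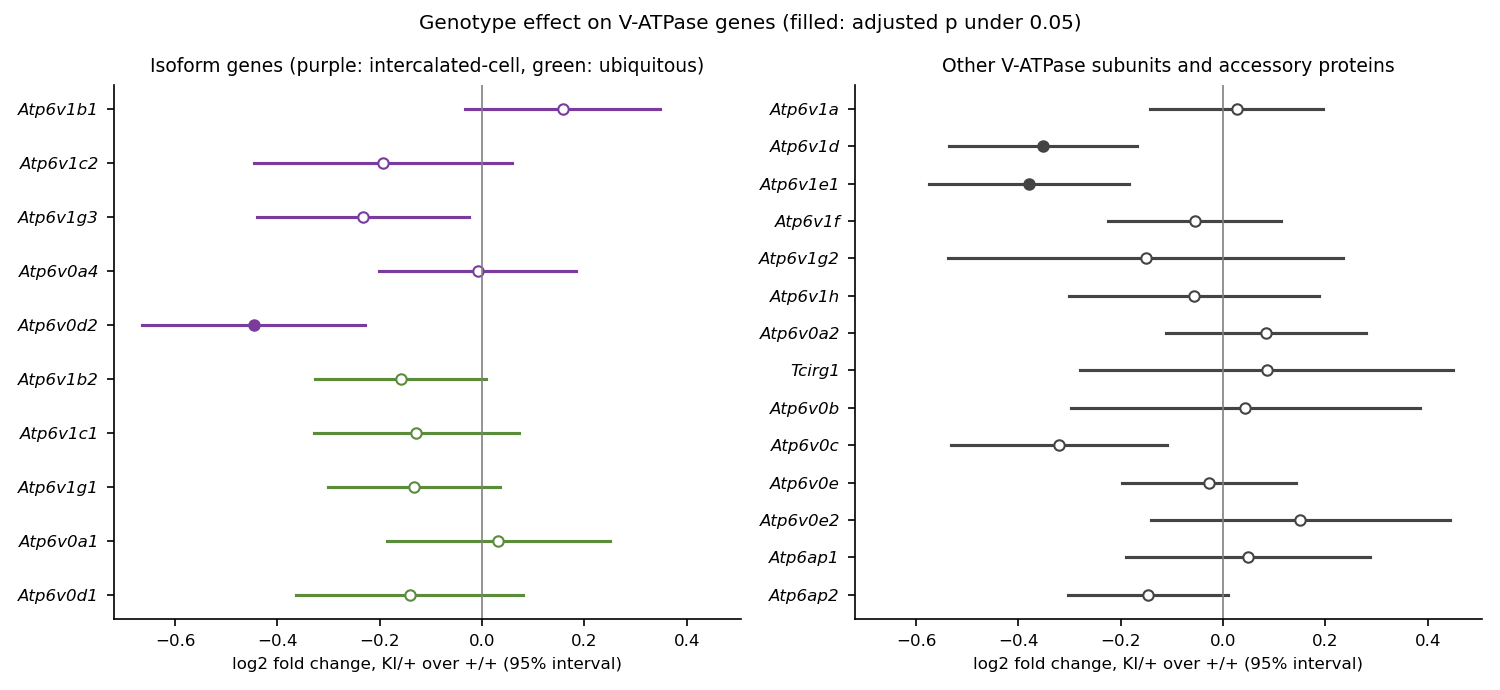
Log2 fold change of KI/+ over +/+ kidneys with its 95% interval from the limma model, for the 10 isoform genes (left, purple for intercalated-cell and green for ubiquitous isoforms) and 14 other V-ATPase genes (right). Filled points have an adjusted p under 0.05, and these are Atp6v0d2 at -0.45, Atp6v1d at -0.35 and Atp6v1e1 at -0.38.

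Taken over all 5 intercalated-cell isoforms, the summed level ranged from 2638 to 2982 normalized counts in +/+ and from 2476 to 2755 in KI/+ kidneys. Of the 10 log2 ratios that can be formed among them, 1 had ranges that did not overlap between genotypes, that of Atp6v1b1 to Atp6v0d2, of which Atp6v0d2 alone already separated the genotypes. It ranged from 0.60 to 1.06 in +/+ and from 1.14 to 1.61 in KI/+ kidneys, and its mean was higher by 0.60 in KI/+, given here as a description without a test. The ratio of Atp6v0a4 to Atp6v0d2 followed with a difference of 0.44, 2.33 ± 0.25 against 2.77 ± 0.17 (SD).

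Deviations from the genotype means over the 10 mice were correlated between genes as a description. The values of any 2 genes share the library, its depth and its code run. The 45 correlations among the 10 isoform genes had a median r of 0.0678, and 23 were positive. The lowest was -0.68, between Atp6v1g3 and Atp6v1b2, and the highest was 0.64, between Atp6v1c2 and Atp6v1c1. Among genes averaging 50 or more normalized counts, those whose deviations were most like an intercalated-cell isoform belonged to no V-ATPase list. For Atp6v0d2 they were Rrnad1 (r = 0.93), Rhno1 (0.89) and Acot7 (0.87), and for Atp6v1b1 they were Pcca (0.92), Adam17 (0.90) and 1110019B22Rik (0.90). For Atp6v1g3 they were Rif1 (0.97), Rfc1 (0.96) and Pja2 (0.95), for Atp6v1c2 Cxadr (0.94), Il34 (0.94) and Rdm1 (0.91), and for Atp6v0a4 Tmem125 (0.90), Slc4a1ap (0.88) and Ip6k2 (0.88). With 10 mice and many genes searched such high values are found by search, and no p is attached to them.

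The rest of the enzyme was read from a list of 15 subunit and accessory genes without an isoform in the 5 pairs or with further isoforms, of which 14 were in the table. Of these, 2 fell, 0 rose and 12 did not pass the threshold in limma, with a median log2 fold change of -0.04. Both edgeR and DESeq2 also called 0 as higher and 2 as lower. At an unadjusted p under 0.05 in limma 0 were higher and 3 lower. Over all genes tested limma called 2.02% as lower, and 15.4% had an unadjusted p under 0.05 in either direction. Every KI/+ kidney was below every +/+ kidney in 2.71% of all genes tested. Atp6v1d makes the central shaft of V1 and Atp6v1e1 the ubiquitous E subunit of the stalks. Atp6v1d stood at 1347, 1338, 1484, 1413 and 1413 normalized counts in +/+ replicates 1 to 5 and at 916, 1089, 1274, 1159 and 1068 in KI/+ replicates 1 to 5, without overlap. Its log2 fold change was -0.35 (SE 0.09), with an adjusted p of 0.0304 by limma. Atp6v1e1 stood at 1455, 1443, 1850, 1652 and 1706 in +/+ replicates 1 to 5 and at 1105, 1255, 1369, 1377 and 1125 in KI/+ replicates 1 to 5, again without overlap. Its log2 fold change was -0.38 (SE 0.09), with an adjusted p of 0.0288. Without the mean-variance trend the folds were the same and both calls were lost (adjusted p of 0.120 and 0.123 in limma), and the Atp6v1d call was also lost in the upper run alone (-0.33, 0.0741). With the code run as a covariate both were called, at -0.39 (adjusted p = 0.00401) and -0.43 (0.00210). Neither was called without +/+ replicate 3, 4 or 5 or KI/+ replicate 1 or 5 (adjusted p 0.0520 to 0.0967 in limma), nor Atp6v1d without KI/+ replicate 2 (0.0560). The third gene with an unadjusted p under 0.05 was Atp6v0c, a subunit of the proton ring, at -0.32 (SE 0.10, adjusted p = 0.0945), which was called with quantile normalization and with the run as a covariate.

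The catalytic subunit gene Atp6v1a averaged 4233 ± 351 normalized counts in +/+ and 4305 ± 243 in KI/+ kidneys (SD, n = 5 each), with a log2 fold change of 0.03 and an adjusted p of 0.922 by limma. Its fold change was -0.06 under quantile normalization, with an adjusted p of 0.810. Among 12 genes of V-ATPase assembly and regulation, such as Vma21, which helps assemble V0, 11 were tested and 0 passed in limma, edgeR or DESeq2. Of the 11, 1, Rogdi, had an unadjusted p under 0.05 in limma, beside 15.4% of all genes tested.

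Kidney identity was looked at with marker lists. Every marker in the table was above 0 in all 10 libraries, including those of proximal tubule, thick ascending limb and collecting duct. No gene in the table averaged under 5.64 normalized counts and absent markers were dropped, so this check could hardly fail. Of 14 intercalated cell markers 12 were in the table, Dmrt2 and Clnk not among them. Their summed level ranged from 1773 to 2126 normalized counts in +/+ and from 1507 to 2062 in KI/+ kidneys. Of the 12, 3 fell and 0 rose in limma, edgeR and DESeq2 alike, and the 3 were Aqp6, Slc4a1 and Oxgr1. At an unadjusted p under 0.05 in limma 1 was higher and 5 were lower. Over all genes tested limma called 2.02% as lower and 1.67% as higher, and 15.4% had an unadjusted p under 0.05 in either direction. Every KI/+ kidney was below every +/+ kidney in 2.71% of all genes tested.

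Aqp6 is a water and anion channel of vesicles in type A intercalated cells, where it lies beside the V-ATPase. It stood at 314.0, 319.3, 332.3, 244.4 and 313.9 normalized counts in +/+ replicates 1 to 5 and at 219.1, 175.6, 220.7, 162.1 and 154.7 in KI/+ replicates 1 to 5, without overlap, with a log2 fold change of -0.71 (SE 0.12) and an adjusted p of 0.00192 in limma. Slc4a1 encodes AE1, the basolateral anion exchanger that defines type A cells and is also abundant in red cell precursors. It ranged from 123.6 to 148.6 in +/+ and from 74.9 to 107.2 in KI/+ kidneys, with -0.59 (SE 0.13) and an adjusted p of 0.0137. Oxgr1, the oxoglutarate receptor of type B and related cells, ranged from 125.1 to 145.2 and from 70.1 to 121.7, with -0.57 (SE 0.14) and an adjusted p of 0.0339, a call kept only without +/+ replicate 1 or KI/+ replicate 1 or 2 among the 10 fits that left out 1 mouse, and lost in the upper run alone (-0.63, 0.0931) and without the trend (-0.57, 0.0741), but kept with the code run as a covariate (-0.55, 0.0323).

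Other defining markers did not pass in limma. Slc26a4, which encodes pendrin, the apical exchanger of type B cells, had a log2 fold change of 0.25 (adjusted p = 0.331), and Foxi1, the factor that specifies intercalated cells, had -0.10 (adjusted p = 0.833). Slc4a9, the basolateral exchanger of type B cells, had -0.33 (adjusted p = 0.310), and the ammonia channel genes Rhbg and Rhcg had 0.24 and 0.01 (adjusted p = 0.274 and 0.984). Of the others, Slc26a7, an anion exchanger of type A cells, had the largest change in the list without passing (-1.07, SE 0.37, adjusted p = 0.140, 19.7 ± 5.95 normalized counts in +/+ and 9.79 ± 5.57 in KI/+ kidneys), and Insrr had 0.51, Hmx2 -0.14 and Avpr1a -0.15 (adjusted p = 0.357, 0.825 and 0.722). Over the list of 12 markers 8 values were negative and 4 positive.

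**Figure D4:**
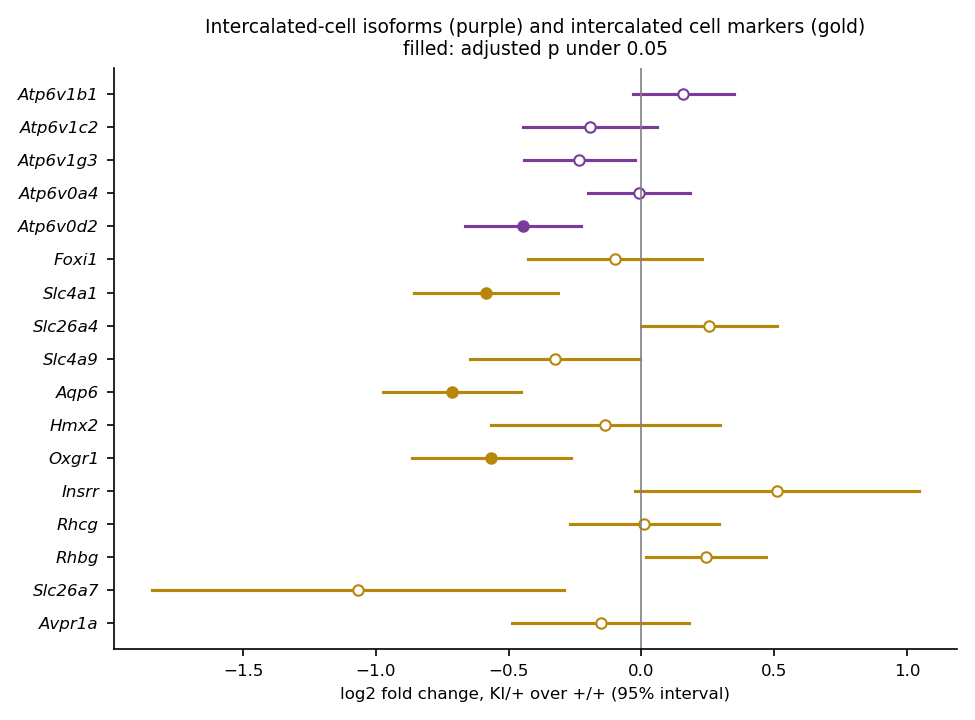
Log2 fold change of KI/+ over +/+ kidneys with its 95% interval from the limma model for the 5 intercalated-cell isoforms (purple) and 12 intercalated cell markers (gold), filled where the adjusted p is under 0.05. The filled points are Atp6v0d2 at -0.45, Aqp6 at -0.71, Slc4a1 at -0.59 and Oxgr1 at -0.57, and the other isoforms and markers have open points. Of the 12 markers 8 had negative and 4 had positive values.

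Some markers of neighbouring cells also moved between genotypes. Over all genes tested limma called 1.67% as higher and 2.02% as lower, and 15.4% had an unadjusted p under 0.05 in either direction. DESeq2 called 316 genes as higher and 333 as lower, and edgeR 217 and 261. Of 8 principal cell markers, 2 rose in limma, Avpr2 (log2 fold change 0.88, adjusted p = 0.000756 by limma) and Hsd11b2 (0.43, adjusted p = 0.0478). At an unadjusted p under 0.05 in limma 5 of the 8 were higher, DESeq2 called 5 as higher and edgeR 1, and 7 of the 8 limma values were positive. Over all 8 the summed level ranged from 2047 to 2404 normalized counts in +/+ and from 2554 to 3988 in KI/+ kidneys. Of 8 distal convoluted and connecting tubule markers 4 fell and 0 rose in all 3 tools (Pvalb -3.06, Trpm6 -1.84, Slc12a3 -1.20 and Wnk1 -0.45 on the log2 scale, adjusted p from 5.08e-09 to 0.0103 in limma), with sums of 16023 to 18740 and 12869 to 15733. In the thick ascending limb 1 of 5 rose (Cldn16, 0.82) and 2 fell (Kcnj1, -0.80, and Umod, from a mean of 22917 to 11569 normalized counts), with adjusted p from 0.000198 to 0.0156 in limma. In the proximal tubule 1 of 8 rose (Slc22a6, 0.52) and 2 fell (Slc5a2, -0.93, and Slc5a12, -0.95), with adjusted p from 4.64e-05 to 0.00177, and 0 of 8 macrophage markers passed in limma, edgeR or DESeq2, 3 of them having an unadjusted p under 0.05 in limma. The Hsd11b2 call was lost without +/+ replicate 3, 4 or 5 or KI/+ replicate 1, 2 or 5 (adjusted p 0.0916 to 0.152 in limma), with a mean of 50 as the filter (0.0506), with TMM or quantile normalization (0.0532 and 0.0671), without the trend (0.157) and in edgeR (0.0544). The part of these shifts in the values of the isoform genes was not tested.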

How the data were processed

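RNA from 10 whole kidneys, 5 per genotype and 1 library per mouse, was analysed, with genotypes taken from the labels. The authors made QuantSeq 3′ libraries, aligned reads to GRCm39 with TopHat2 2.0.10 and assigned them to genes by strand with HTSeq 0.6.1. They deposited a normalized signal, namely reads over a size factor, for 13837 genes in each library. Multiplied by the size factors, 100% of values were whole reads within 0.01 reads, with 6501552 to 7856363 reads in +/+ and 6872310 to 7996087 in KI/+ libraries. Each of the 10 columns of values had its mouse, with 0 columns unmatched, and no gene averaged under 5.64, so rarer genes were not analysed here.

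Values were tested as log2(value + 1) with limma 3.58.1 in R 4.3.3 (eBayes with trend, two-sided), in genes that reached 10 normalized counts in 5 mice or more. Benjamini-Hochberg adjustment ran over all these genes, at a threshold of 0.05. The pseudocount understates changes of low genes. For each of 5 pairs the log2 ratio per mouse was compared by a two-sided exact permutation test over all splits of the mice (numpy in Python 3.11.15), without adjustment over the pairs. Because the table holds normalized values, the count models (DESeq2 1.42.0 and the quasi-likelihood test of edgeR 4.0.16) served as alternatives on the recovered reads. Other alternatives were pseudocounts of 0.5 and 5, dropping the filter or requiring a mean of 50, TMM or quantile normalization, no trend, a robust fit, the code run as a covariate, the upper run alone and leaving out each mouse. The scripts were tested on simulated data. Promoter windows came from RefSeq (GRCm38.p6), a build other than that of the counts, and were matched by symbol only.

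The members and gene lists were chosen with earlier results of these data known. Named with values were all members, Rragc, Atp6v1a, the genes past the threshold in each fixed list (at most 4 per marker list), and for each intercalated-cell isoform the 3 genes most correlated with it within genotypes. Other genes were named after their values were seen, as defining markers of type A or type B cells or as single genes behind a count.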

Additional observations from a re-analysis of the deposited data

Results flagged for a closer look

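In 30 sets of 5 kidneys (the levels of the 10 isoform genes and the ratios of the 5 pairs, in each genotype), 4 held a sample whose gap to its nearest neighbour exceeded 0.71 of the range of the set, a size that chance gives in about 1 in 20 sets. Atp6v1b1 was 382.7 normalized counts in +/+ replicate 4 and 446.8 to 471.9 in the other +/+ kidneys. This kidney also had the lowest Atp6v1b1 to Atp6v1b2 ratio, and the difference in that ratio without it was 0.236 with an exact permutation p of 0.0238.

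Atp6v1g1 was 2523 normalized counts in +/+ replicate 1, beside 2219 to 2306 in the other +/+ kidneys. Atp6v0d1 was 321.0 in +/+ replicate 2, beside 255.2 to 273.9, and 310.2 in KI/+ replicate 1, beside 231.4 to 242.3. These 3 libraries are the 3 with codes 38 to 40. The part of the code run in these values was not tested.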

How the results depend on the processing

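The fall of Atp6v0d2 was called under all 12 settings that kept the design or used the upper run alone (adjusted p 0.00361 to 0.0487) and in 6 of 10 fits without 1 mouse, so the isoform genes called ranged from 0 to 1. The other 9 isoform genes were called under none of these settings (adjusted p 0.0852 or higher). Over all genes 487 were called, 291 without the trend, 832 (434 higher, 398 lower) with the run as covariate, 319 in the upper run alone and 267 to 459 without 1 mouse, with DESeq2 at 649 and edgeR at 478. Of the other subunits, 0 were called without the trend, 1 (Atp6v1e1) in the upper run alone and 0 to 3 without 1 mouse (0 without +/+ replicate 3, 4 or 5 or KI/+ replicate 1 or 5), Atp6v0c being the third with a log2 fold change of -0.35 and an adjusted p of 0.0334 with the run as covariate. The cause of these moves was not tested, except that leaving out mice leaves fewer samples.

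Changes of sign were limited to genes near 0. Atp6v0a4 ranged from -0.065 to 0.043 without 1 mouse, at 0.023, 0.026, 0.0057 and 0.043 without +/+ replicate 1, 3 or 4 or KI/+ replicate 5. Atp6v0a1 ranged from -0.011 to 0.080 and was -0.0026 in the upper run alone. Atp6v1a ranged from -0.028 to 0.054, and was -0.057 under quantile normalization and -0.030 in the upper run alone. The a ratio ranged from -0.092 to 0.049. The d ratio was -0.37 in the upper run alone and -0.37 to -0.24 without 1 mouse.

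No paired analysis was possible because the labels give no replicate numbers that tie mice of different genotypes. Counting limits the least abundant isoform gene, Atp6v1c2, most, with 120 to 189 reads per library.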
